A study of Homo sapiens with 8 samples.

Results

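RBFOX2, an RNA-binding protein that regulates splicing, was mapped by eCLIP on the transcripts of MAP3K7 and of the genes for its binding partners TAB1, TAB2 and TAB3 in HEK293T cells, an established human embryonic kidney line. In eCLIP, RNA and protein in contact are linked with ultraviolet light, an antibody pulls down 1 protein (immunoprecipitation, IP), and the RNA it carries is sequenced beside an input sample taken without that step. The members are all called peaks whose midpoint falls inside the RefSeq span of 1 of the 4 genes, on the strand of that gene. There were 482 such peaks of 1118316 in the 4 deposited lists together: 134 in MAP3K7, 98 in TAB1, 217 in TAB2 and 33 in TAB3. Inside the 4 spans, the opposite strand held 0 called peaks. Both kinds of library, 4 IP (RBFOX2 target) and 4 input (no target), came from 10000000 HEK293T cells crosslinked with 400 mJ per square centimetre at 254 nm, and the input was 2% of the sample. Each IP was set by the authors against the input of the same number, giving 1 list per replicate, numbered 1 to 4. The labels do not say whether the replicates were separate cultures, so the spread between them may be technical.

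MAP3K7 encodes TAK1, a kinase that links cytokine, Toll-like and TGF-beta family receptors to the IKK complex and to the MAP kinase kinases of the JNK and p38 pathways. TAB1 binds the kinase domain of TAK1 and promotes its activity. TAB2 and its close relative TAB3 are adaptors that bind polyubiquitin chains and bring TAK1 to activated receptor complexes. RBFOX2 binds the RNA element GCAUG, mostly in introns beside alternative exons, and the pre-mRNA of MAP3K7 has alternative exons and has been described as an RBFOX2 splicing target.

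The 5′ ends were the parts of the 4 genes whose sequence could be read here, in 300 nt windows (RefSeq, GRCh38.p14, 250 nt before to 50 nt after an annotated start). All 4 genes had a window, and TAB2 had 2. Peaks in all 4 lists crossed both TAB2 windows. The stretch below is shown because within these windows it is the place where peaks of all 4 lists coincided before an annotated start. It covers chr6:149317631-149317711, plus strand, and ends just before the start at 149317712, with the 64 nt shared by the peaks of all 4 lists in capitals. The TAB1 stretch, chr22:39399685-39399713, plus strand, is shown because it holds the GCATG (the DNA spelling of that element) found in the windows of these genes, in capitals, 83 nt before the TAB1 start.
TAB2: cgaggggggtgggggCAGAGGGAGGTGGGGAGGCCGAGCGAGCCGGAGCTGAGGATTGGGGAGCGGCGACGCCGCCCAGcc
TAB1: gtggcgctgggcGCATGctccccggcagc
The TAB2 stretch had 77.8% G and C and held 0 matches to GCATG. Neither TAB2 window held GCATG on either strand, and the same was true of the MAP3K7 and TAB3 windows. The TAB1 match overlaps 1 on the other strand, because GCATGC reads the same there, and 0 peaks crossed that window. Of all 35116 windows of this length, 19.6% held GCATG on the gene strand and 29.5% on either strand. A match is a string of letters and no binding site was measured there.

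Each peak carries a pair of values. The first is the −log10 of the authors' p for IP over input and the second the log2 fold of IP over input. Read counts were not used here, so the depth behind a single fold is unknown. The lists held 267691 to 288305 called peaks. A peak is called enriched here where both values reach 3. Of all peaks, 0.861%, 0.848%, 0.789% and 0.775% passed in lists 1 to 4, or 0.818% over the 4 together. A single fold close to 0, between −0.000866 and 0.00141, was shared by 40.6% to 42.7% of the peaks of a list, and is called the commonest fold below. Of the cell type markers matched, VIM had 14 to 19 called peaks per list and PAX2 1 to 5, while the hepatocyte gene ALB and the leukocyte gene PTPRC had 0 in every list.

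MAP3K7 was the member with enriched peaks (5 of 134, against 0.818% of all peaks), and they lay at 1 place. All 4 lists had an enriched peak in the region chr6:90544693-90544885, minus strand, 42.3 kb from the 5′ end of the 73.5 kb gene span. The log2 fold there was 4.46 in replicate 1, 4.00 in replicate 2, 4.52 in replicate 3 and 3.32 in replicate 4 (mean 4.08 ± 0.55, SD, n = 4). Replicate 4 was the lowest and the other 3 lay at or above 4.00. The −log10 p was 5.24, 7.44, 5.81 and 5.85 in the same order, so the replicate with the lowest fold did not have the weakest p. The peaks were 109 to 173 nt long, against a median of 50 nt for the other MAP3K7 peaks, and all 4 covered the same 109 nt, from 90544716 to 90544824. Whether these bases are exonic or intronic, and which RBFOX2 motifs they hold, was not analysed here.

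The enrichment extended to the 3′ side of this region. Next to it, with a midpoint 113.5 to 165.5 nt from its centre, every list had at least 1 further called peak. The highest log2 fold of these flanking peaks was 2.32 in replicate 1, 3.91 in replicate 2, 2.81 in replicate 3 and 2.32 in replicate 4. Replicate 4 had another flanking peak, at 165.5 nt, with a log2 fold of 1.81 (−log10 p 0.75). The flanking peak of replicate 2 passed both limits (−log10 p 3.56), spans 90544580 to 90544688 and is the remaining enriched MAP3K7 peak. Further on, 388.0 to 407.0 nt from the centre, replicates 2, 3 and 4 had peaks with log2 folds of 2.81, 2.32 and 1.00. Replicates 1, 2 and 3 had the next group, at 664.5 to 734.5 nt, with log2 folds between 1.00 and 1.42. Replicate 2 had another peak between these groups, at 235.0 nt, with a log2 fold of 1.59, so its folds did not fall steadily with distance. On the 5′ side there were 2 peaks within 1 kb, at −566 nt in replicate 3 (log2 fold 2.0) and at −917 nt in replicate 1 (2.32), each found in a single list.

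**Figure D1:**
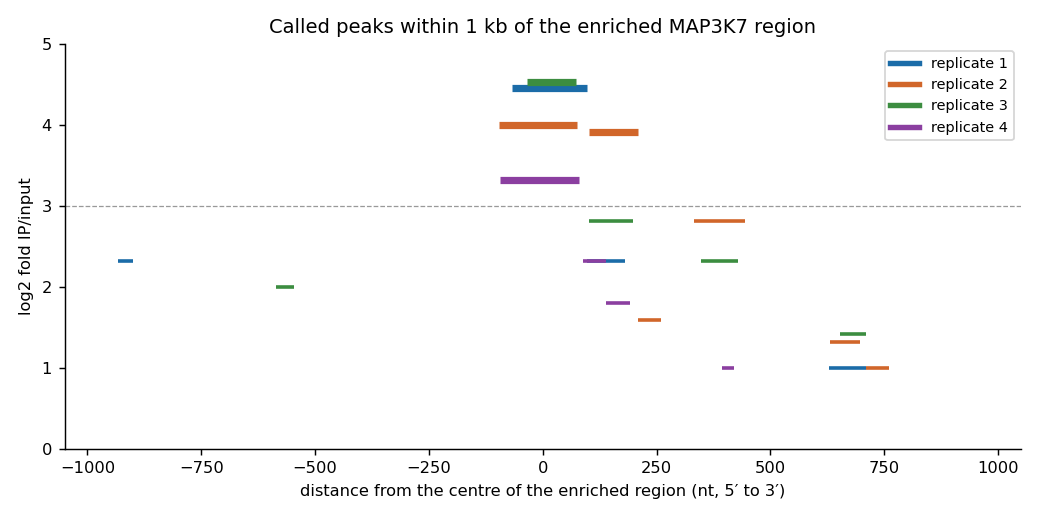
Log2 fold of IP over input (vertical axis) of each called MAP3K7 peak within 1 kb of the centre of the enriched region, drawn at its true length along the RNA (horizontal axis, nt, 5′ to 3′), coloured by replicate, with enriched peaks as thick bars and the limit of 3 dashed. The 4 central bars lie between 3.32 and 4.52, and every other peak drawn lies between 1.00 and 3.91.

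Within 1 kb of the centre, 19 of 19 peaks of the 4 lists had a log2 fold above 0.5. The window was placed on the enriched region, so this is a description. In the rest of MAP3K7, 28 of 115 peaks did, or 24.9% ± 5.995 per list (SD, n = 4). Leaving out the window lowers that share by construction, so it is not set against all peaks. Outside the window the highest log2 fold was 3.0, in replicate 2, with a −log10 p of 1.67. That peak belonged to the region from 90538084 to 90538219, whose log2 fold was 1.58, 3.0, 1.00 and 0.41 in replicates 1 to 4. All 4 values were positive, but they differed by over 2 units, and the mean of 1.5 did not pass (limma, adjusted p = 0.0869). At the other extreme, the region from 90547252 to 90547370, 39.8 kb from the 5′ end, had a mean log2 fold of −1.04 (limma, adjusted p = 0.232). Its values fell apart, with −2.58 and −1.58 in replicates 2 and 3 and the commonest fold of the list in replicates 1 and 4. The remaining tested regions, at 49.3 and 47.6 kb, had mean log2 folds of 0.65 ± 0.47 and −0.50 ± 1.11 (SD, n = 4; limma adjusted p of 0.175 and 0.508).

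Split into 5 equal parts from 5′ to 3′, MAP3K7 carried 23, 12, 47, 38 and 14 called peaks. The share of these peaks above a log2 fold of 0.5 was 13%, 25%, 59.6%, 31.6% and 7.14% in the same order. The middle part holds the enriched region. Of its 28 peaks above 0.5, 19 are those within 1 kb of the centre, so its high share largely restates that window.

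**Figure D2:**
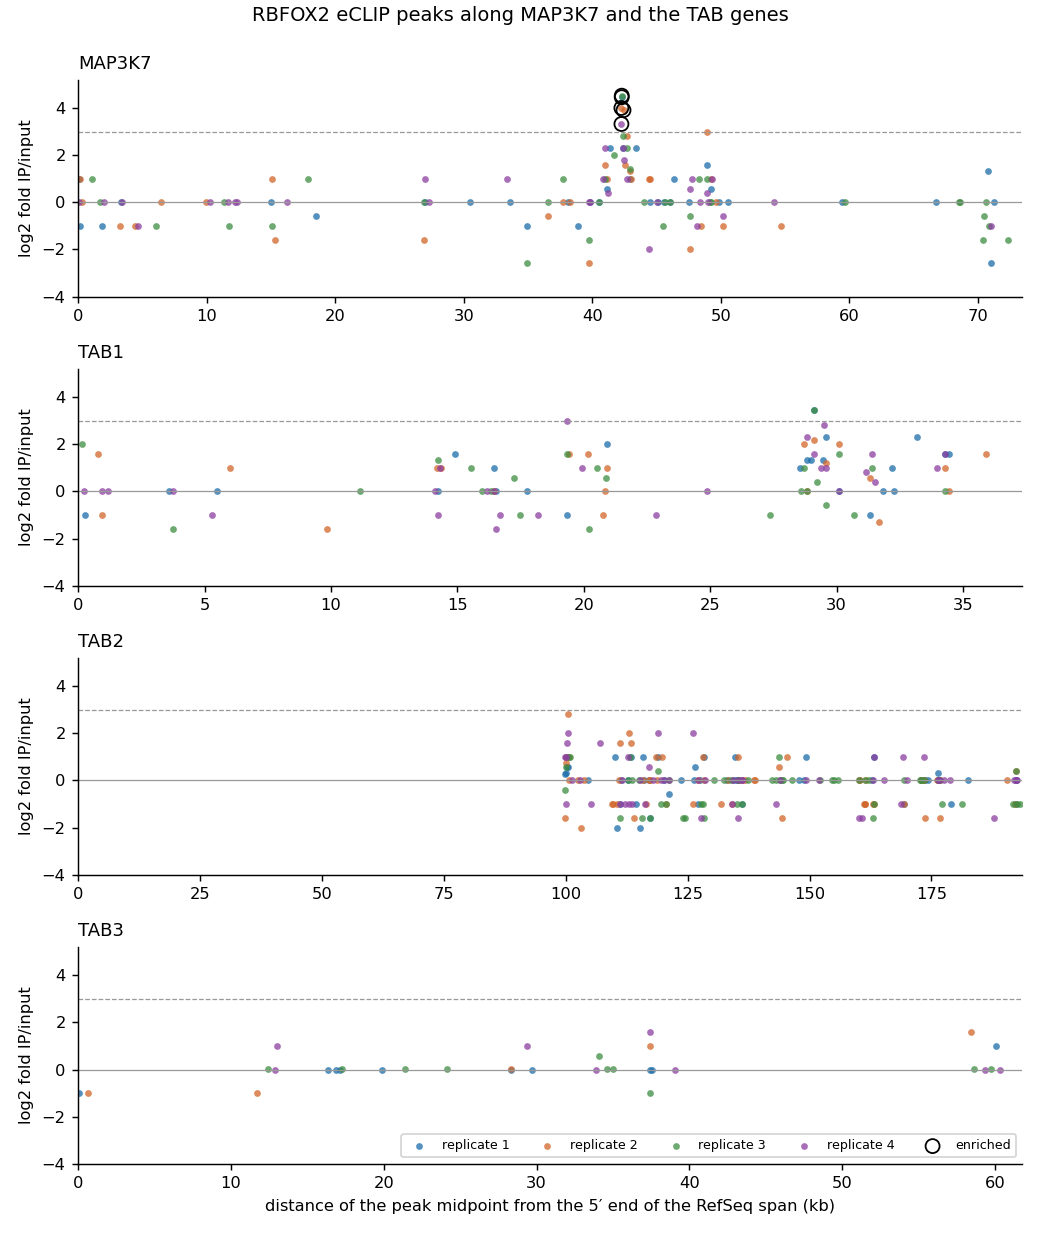
Log2 fold of IP over input (vertical axis) of every called peak against its distance from the 5′ end of the RefSeq span in kb (horizontal axis), 1 panel per gene, coloured by replicate, with enriched peaks circled and the limit of 3 dashed. The 5 circled peaks sit together in MAP3K7 near 42.3 kb, and the first 99.5 kb of TAB2 is empty.

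The mean fold of each region was tested against 0 over the 4 replicates on all 49493 regions of merged peaks that had a called peak in every list. In this limma fit, with Benjamini-Hochberg adjustment, 20.6% of all regions were higher than 0 and 1.79% lower at an adjusted p of at most 0.05. Each list gave the fold of its most significant peak in a region, a choice that favours positive folds where a list had several peaks. With a length-weighted mean fold instead, 19.3% of the 49493 regions were higher and 1.82% lower. The 4 genes held 21 of these regions, of which 2 were higher and 0 lower (at an unadjusted p under 0.05, 6 were higher and 0 lower, against 32.3% and 4.72% of all regions). Neither 2 nor 6 of 21 is above the background. The higher ones were the merged MAP3K7 region from 90544580 to 90544885 (mean 4.08, SE 0.31, adjusted p = 0.00441), and a TAB1 region. The merged MAP3K7 region takes in the flank, but the fold tested in every list was that of the central peak. With the length-weighted mean fold of all its peaks, its mean was 3.57 (limma adjusted p = 0.00470). The MAP3K7 region was already known from earlier results of these data, so its test is no independent support. With 3 replicates the MAP3K7 region had limma adjusted p-values of 0.0509 without replicate 1, 0.0511 without replicate 2, 0.0490 without replicate 3 and 0.0509 without replicate 4. In those fits, the smallest adjusted p of any region in the whole table was 0.0509, 0.0503, 0.0490 and 0.0509.

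Among the 552 regions enriched in all 4 lists, the MAP3K7 region ranked 369 from the top by mean log2 fold (median 4.29, quartiles 3.98 and 4.86). Its length of 193 nt was close to their median of 204.5 nt. Of the 11968 genes with a called peak on their strand, 1.94% held such a region, and among the 6958 protein-coding genes with at least 5 called peaks in every list 3.12% did.

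TAB1 had 0 enriched peaks of 98, but the highest share of peaks with positive folds. Its strongest region, chr22:39428838-39428944, plus strand, 29.1 kb from the 5′ end of a 37.4 kb span, had log2 folds of 3.46, 2.17, 3.46 and 1.58 in replicates 1 to 4 (mean 2.67 ± 0.94, SD, n = 4). Replicates 1 and 3 passed the limit on the fold, and replicates 2 and 4 did not. The −log10 p of 2.20, 1.41, 2.47 and 1.11 stayed below 3 in every list. The limma test called this region higher (SE 0.42, adjusted p = 0.0140). That call was lost on leaving out any of the 4 lists, with limma adjusted p-values of 0.0925, 0.0821, 0.0878 and 0.0599 without replicates 1, 2, 3 and 4. Without replicate 1, 2 or 4 the fit called 0 regions of the whole table higher, and without replicate 3 it called 3.93%. The loss is thus not particular to this region.

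Around this TAB1 region lay 3 other regions found in all 4 lists, centred 28.8, 29.6 and 30.1 kb from the 5′ end. Their mean log2 folds were 0.91 ± 1.13, 0.99 ± 1.20 and 0.90 ± 1.05 (SD, n = 4). None of the 3 passed the limma test (adjusted p from 0.232 to 0.248), and in each of them the SD exceeded the mean. A further region near 34.3 kb had log2 folds of 1.58, 1.00 and 1.58 in replicates 1, 2 and 4 and the commonest fold in replicate 3 (limma adjusted p = 0.105). The region near 14.2 kb took both signs, from −1.0 in replicate 4 to 1.32 in replicate 3 (mean 0.33, limma adjusted p = 0.646). All 6 TAB1 regions had a mean above 0, against 36170 of the 49493 in the whole table. Over 5 equal parts of the span, from 5′ to 3′, TAB1 had 13, 10, 27, 24 and 24 called peaks in the 4 lists together. Of these peaks, 23.1%, 50%, 44.4%, 66.7% and 58.3% passed a log2 fold of 0.5. The pooled shares were highest in the 2 parts at the 3′ end, but the counts are small and shares per list were not compared.

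TAB2 had the largest number of called peaks and 0 enriched ones of 217. Its called peaks all lay after 149317462, where the first of its 2 windows begins. The 99.5 kb of the RefSeq span before that point held 0 of the 217. The region of highest fold lay just after the second annotated start (149318300), at chr6:149318304-149318435, plus strand. There, replicates 1 to 4 had log2 folds of 0.58, 2.81, 1.00 and 2.0 (mean 1.60 ± 1.00, SD, n = 4), positive in 4 of 4 lists, and it did not pass the limma test (adjusted p = 0.0601). The stretch printed above belongs to the region at the first start, 149317631 to 149317763. There the log2 folds were 0.26, −1.58, −0.41 and 1.00, in both directions around a mean of −0.18 (limma adjusted p = 0.824). Between them, the region from 149317846 to 149318013 had 0.32, 0.74, 0.59 and 1.00 (mean 0.66 ± 0.28, SD, n = 4; limma adjusted p = 0.124). Replicate 4 had a further peak in that region with a log2 fold of −1.0, which the choice of 1 peak per list left out.

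Beyond its starts, TAB2 had 6 more regions in all 4 lists, with mean log2 folds from −0.50 (at 111.1 and 136.1 kb) to 0.85 (at 118.9 kb). None passed the limma test (adjusted p from 0.195 to 0.9998), and over all 9 TAB2 regions 2 were higher at an unadjusted p under 0.05, against 32.3% of all regions. Of its peaks, 37.3% passed a log2 fold of 0.5 in the middle one of 5 equal parts of the span, 16.7% in the next and 5.88% in the last. The parts before the middle held 0 peaks.

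TAB3 had few peaks, 10, 5, 10 and 8 in replicates 1 to 4, and 0 enriched ones of 33. Its highest log2 fold was 1.59, in replicate 2, with a −log10 p of 0.43. Of its 29 merged regions, 27 were seen in a single list and 1 in all 4. That one, chrX:30851775-30851892, minus strand, took both signs (mean 0.40 ± 1.14, SD, n = 4; limma adjusted p = 0.596). At the 5′ end the rule on midpoints divided a group of peaks. The peak of replicate 1 lay inside the span with a log2 fold of −1.0, and those of replicates 2, 3 and 4 lay 2.5, 7.0 and 15.0 nt outside it, with 1.00, 0.00077 and −1.0. Neither side of that boundary held an enriched peak.

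**Figure D3:**
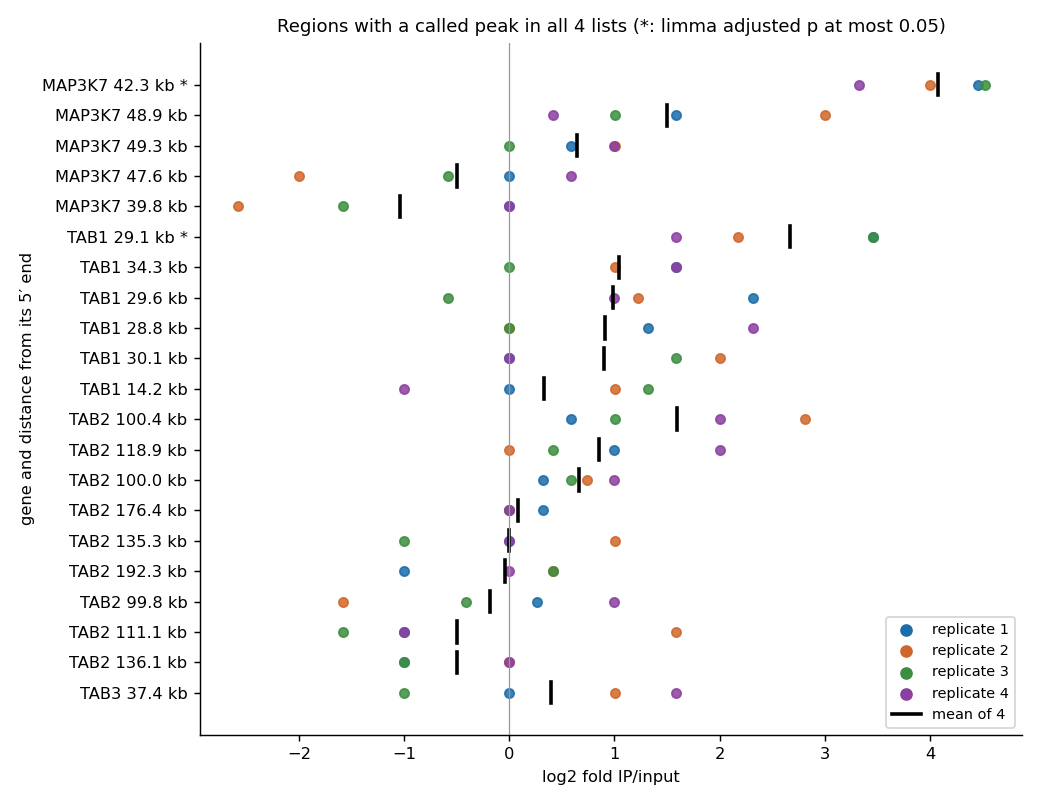
Log2 fold of IP over input (horizontal axis) in each replicate (coloured points) and the mean of 4 (black bar) for the 21 regions of the 4 genes that had a called peak in every list, labelled by gene and distance from its 5′ end, with an asterisk where the limma adjusted p was at most 0.05. The MAP3K7 region at 42.3 kb has the highest mean, with values from 3.32 to 4.52. The TAB1 region at 29.1 kb overlaps that range, at 3.46 in replicates 1 and 3. Most regions, the MAP3K7 one included, spread across 1 to 3 units between replicates.

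The genes were then compared over the lists by how many of their called peaks passed a log2 fold of 0.5. Over all peaks this share was 33.1%, 31.6%, 29.8% and 31.2% in lists 1 to 4. TAB1 had 54.2%, 63.6%, 45.8% and 42.9% in replicates 1 to 4 (mean 51.6% ± 9.33, SD, n = 4), above the share of all peaks in 4 of 4 lists. MAP3K7 had 31.4%, 46.7%, 30.6% and 33.3% (mean 35.5% ± 7.54), above it in 3 of 4. TAB3 had 10.0%, 40%, 10.0% and 37.5% (mean 24.4% ± 16.6), which rests on 5 to 10 peaks per list. TAB2 had 23.4%, 21.7%, 8.93% and 22.2% (mean 19.1% ± 6.79), below it in 4 of 4. The order TAB1, MAP3K7, TAB2 held in every list. MAP3K7 minus TAB1 was −16.1 ± 5.44 percentage points, and MAP3K7 minus TAB2 was 16.4 ± 8.15. By the median log2 fold of a gene's peaks, in contrast, MAP3K7, TAB2 and TAB3 all sat at the commonest fold of each list and their differences were 0. The share above 0.5 was tested by an exact sign-flip permutation over the 4 lists. MAP3K7 against TAB1 and TAB2, and TAB1 against TAB2 and TAB3, each had a two-sided permutation p of 0.13, the smallest that 4 lists allow. After Benjamini-Hochberg adjustment over the 6 pairs this permutation p was 0.188. MAP3K7 minus TAB3 was 11.1 ± 12.2 percentage points, positive in 3 of 4 lists, and TAB2 minus TAB3 was −5.32 ± 14.6, negative in 3 of 4. The two-sided exact permutation p of these differences was 0.25 and 0.375 (adjusted 0.3 and 0.375). Because 4 lists allow no p below 0.13, the permutation cannot settle whether any of the 6 pairs differ. Across the protein-coding genes with at least 5 called peaks in every list, the median of this share was 26.5% (quartiles 19.7% and 37.8%), so TAB1 lay above the upper quartile, TAB2 just below the lower one, and MAP3K7 and TAB3 between them.

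Called peaks per kb of span showed how densely each transcript was covered, whether bound or not. It is a count of peaks, and it cannot tell RNA level from binding. The density was 0.656 ± 0.0674 per kb for TAB1, 0.456 ± 0.0360 for MAP3K7, 0.280 ± 0.0281 for TAB2 and 0.133 ± 0.0382 for TAB3 (SD, n = 4 for each). All 6 differences had the same sign in 4 of 4 lists (exact permutation p = 0.13 for each, and the same after adjustment). The place of TAB2 depended on the span. Counted over the 94.1 kb from its first window on, it had 0.576 ± 0.0578 per kb, which lay above MAP3K7 in 4 of 4 lists and no longer below TAB1 in each (lower in 3 of 4). The median over the protein-coding genes above was 0.481 per kb.

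**Figure D4:**
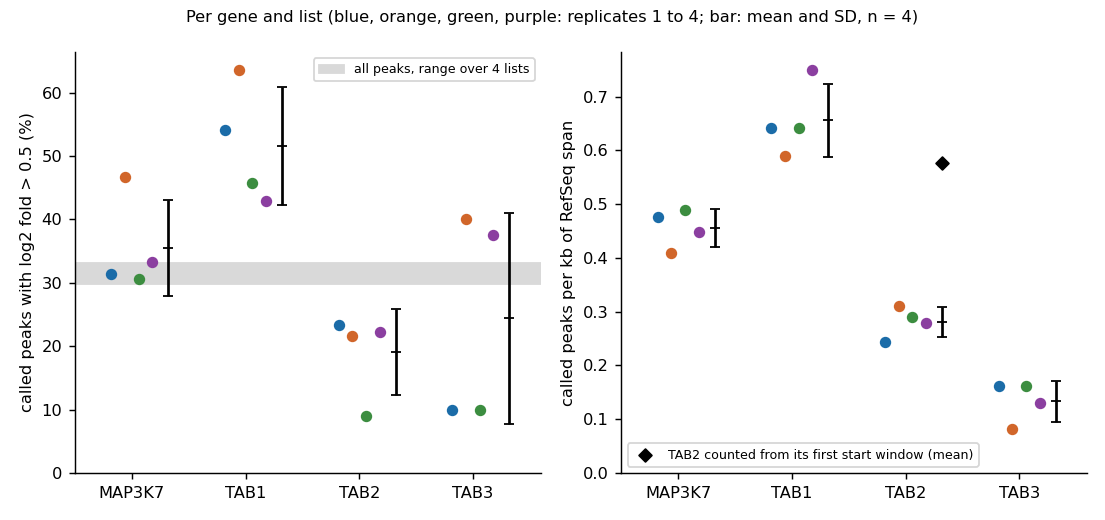
Left, percent of called peaks with a log2 fold above 0.5 per gene, with the range of all peaks over the 4 lists in grey. Right, called peaks per kb of RefSeq span, with the mean of TAB2 counted from its first window as a diamond. Points are replicates 1 to 4 (blue, orange, green, purple) and bars the mean and SD. TAB1 is highest in both panels, and TAB2 moves from 0.280 to 0.576 per kb with the shorter span.

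Merging all called peaks by overlap of at least 1 nt gave 88 regions in MAP3K7, 62 in TAB1, 149 in TAB2 and 29 in TAB3. Those present in all 4 lists numbered 5, 6, 9 and 1, or 21 of 328 (6.40%), against 7.06% of all 701159 regions. Those seen in 1 list made up 72.7% in MAP3K7, 66.1% in TAB1, 76.5% in TAB2 and 93.1% in TAB3, against 68.3% of all regions. TAB3 thus had the largest share of regions seen once and the fewest peaks.

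For each member the genes nearest in the 4 shares above a log2 fold of 0.5 were found among genes whose number of called peaks lay between 0.8 times its own and the inverse of that ratio. For MAP3K7 they were EFTUD2, CENPE and LOC100128253, with a summed absolute difference of 9.24, 9.68 and 9.75 percentage points over the 4 lists. For TAB1 they were SACM1L, SLC22A5 and DDB2 (11.1, 11.9 and 13.2 points). For TAB2 they were MEF2A, FMN2 and PAM (8.21, 8.36 and 9.82 points), and for TAB3 PLEKHA3, HROB and PDCD5 (9.17, 13.97 and 17.9 points). The measure was taken over 4 lists of 1 cell line and from 677 to 1420 candidate genes per member.

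The members were set beside a list of 35 other genes of the TAK1 pathway, of which 33 were matched to a strand. All 33 had a called peak in at least 1 list. An enriched peak in any list was found in 3 of them (TRAF2, USP4 and MAP2K7, the last 2 named after their values were seen), against 7.95% of all genes with a called peak, and a region enriched in all 4 lists in 1, against 1.94%. A limma region higher than 0 was held by 8 of the 33, against 23.6% of genes, and a lower one by 1, against 4.21% (UBE2D3, a ubiquitin-conjugating enzyme, also named after its values were seen). By role, at least 1 higher region was found in 2 of 12 upstream ubiquitin enzymes and adaptors, 1 of 3 receptors, 1 of 6 inhibitors and 4 of 12 downstream genes. Over the list, the median share of peaks that passed a log2 fold of 0.5 was 23.2%.

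TRAF2, a ubiquitin ligase of the TNF receptor complex, was the gene of the list with regions enriched in all 4 lists. It held 4 of them and 59 enriched peaks, and 25 of the 40 higher limma regions of the list were its own. The region of highest mean, chr9:136889995-136890403, plus strand, had log2 folds of 5.37, 5.43, 5.49 and 5.93 in replicates 1 to 4 (mean 5.56 ± 0.25, SD, n = 4). A neighbour, chr9:136889746-136889978, had nearly the same mean with a wider spread (5.50 ± 1.41) and was higher in replicates 2 and 3. The first of them was higher in every list than the MAP3K7 region, whose highest value was 4.52. The part of TRAF2 peaks above a log2 fold of 0.5 was 93.1%, against 35.5% in MAP3K7.

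**Figure D5:**
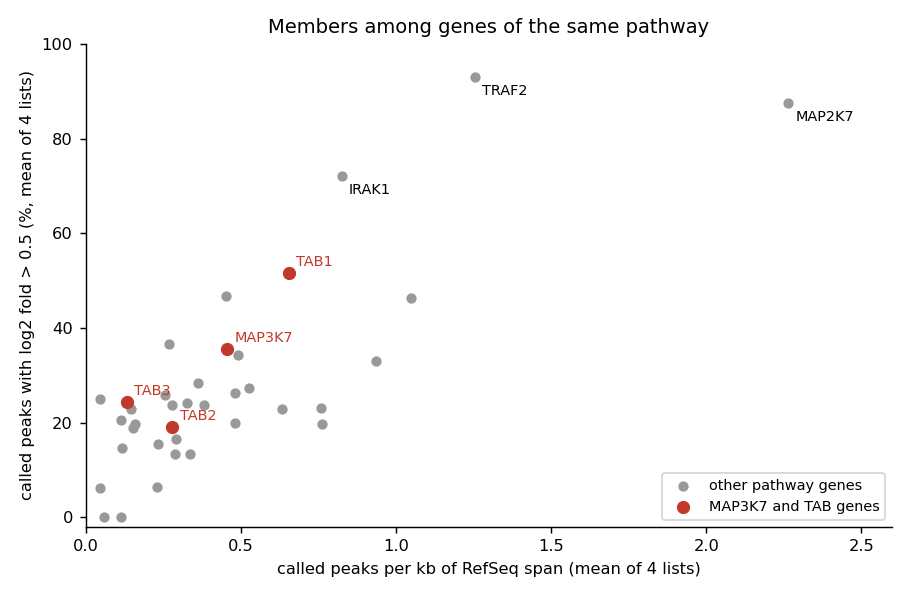
Percent of called peaks with a log2 fold above 0.5 (vertical axis) against called peaks per kb of RefSeq span (horizontal axis), both as means of the 4 lists, for MAP3K7 and the TAB genes (red) and the 33 other pathway genes (grey). TRAF2 lies at 93.1%, and the 4 members lie between 19.1% and 51.6%.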

How the data were processed

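The 4 deposited peak lists carry no header. Per the labels, each sets 1 RBFOX2 IP against the input of the same number. The submitters' processing notes list UMI-tools 1.1.1, cutadapt 3.2, STAR 2.7.7a, hg38 and GRCh38.p13, without their roles. The peak caller, the p-value test, the scaling and the filters are not given in the sources used here. The authors' first value was read from its range as the −log10 of a p-value (0 to 400), and the deposited second value as a log2 fold of IP over input.

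Gene spans came from RefSeq (GRCh38.p14) and strands from its promoter windows. Peaks sharing at least 1 nt on a strand were merged into regions, and each region was given, in each list, the fold of the peak most significant there, ties going to the first by position. The mean folds were tested with limma 3.58.1 (R 4.3.3, intercept only, two-sided, Benjamini-Hochberg over all regions). It was also run on simulated data of normal spread. Those lack the commonest fold that many real peaks share, so that run is no check on the real folds. Gene comparisons used exact sign-flip permutations. Regions were named where a peak was enriched or the limma test passed, with the highest and lowest means of each gene. The members and lists were chosen with earlier results of these data known. Python 3.11.15, numpy 2.4.6 and pandas 2.3.3 were used.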

Additional observations from a re-analysis of the deposited data

Results flagged for a closer look

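Of 41 sets of 4 values listed, 2 had a replicate whose gap to the other 3 was large against the whole range. Peak counts and peaks per kb of a gene are the same values rescaled, and median folds that sat at the commonest fold were passed over. For values of normal spread chance gives about 1 in 20, but folds shared by many peaks are not of that kind. The share of TAB2 peaks with a log2 fold above 0.5 was 8.93% in replicate 3, against 21.7% to 23.4% in the other 3 lists. The TAB2 region from 149394299 to 149394418 had a log2 fold of 0.32 in replicate 1, against −0.0005 to 0.0014 in the others, where it sat at the commonest fold of each list.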

How the results depend on the processing

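When enriched meant a log2 fold from 4 up whatever the p, MAP3K7 had 0.75 such peaks per list, or 3 over the 4 lists against 5, and 0 regions enriched in every list against 1, since replicate 4 reached 3.32. The 2 higher limma regions of the 4 genes became 1 when tested against a log2 fold of 1 (TAB1 region, limma adjusted p = 0.0721), 4 of 17 among regions with a −log10 p above 0 in any list, and 0 to 1 with 1 list left out. Over all regions the shares higher were 5.56%, 30.4% and 0 to 3.93% in these fits, against 20.6%, and the filter on p itself keeps regions with IP above input. Leaving out a list gave limma adjusted p-values from 0.0490 to 0.0511 for the MAP3K7 region and from 0.0599 to 0.0925 for the TAB1 region. Without replicates 1 and 2, 7 of 28 and 4 of 23 tested member regions were higher at an unadjusted limma p under 0.05. Without replicate 3, and likewise without replicate 4, 6 of 25 were higher. Of all regions, 22.7% to 24.0% were higher in these fits. At the same limit, 1 member region was lower without replicate 2 (4.29% of all regions). MAP3K7 minus TAB2 in called peaks per kb went from 0.176 to −0.120 when TAB2 was counted from its first window, an alternative chosen after seeing the data, as was the one on ties, which changed no call. With the median log2 fold in place of the share above 0.5, the differences MAP3K7 minus TAB2, MAP3K7 minus TAB3 and TAB2 minus TAB3 were 0.0. The other 149 alternative values kept their direction and side, or stayed within 1.5 times for counts. In replicates 2 and 3 the step near 2-fold lies above a log2 fold of 1 and in replicates 1 and 4 below it, so shares above 1 are not like for like. Exons, introns and motifs inside the regions were not run. No paired analysis was possible because the pairing is already inside the values: every fold sets an IP against the input of its number, so the fits are paired as they stand and no further block could be added. Without read counts, the precision of a single fold is unknown.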

Other observations

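Other annotated genes overlap the member spans, and their strand was not used here. In TAB1, 9 of 98 called peaks, from all 4 lists, lay inside the span of the long non-coding RNA gene LOC100506472, with a highest log2 fold of 2.32. In MAP3K7, 4 of 134 peaks lay inside LOC124901363 at the 5′ end, with a highest log2 fold of 1.00. In TAB2, 1 of 217 peaks lay inside SUMO4, a gene nested in the TAB2 span, and 0 lay inside TAB2-AS1.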
